A study of Mus musculus with 72 samples.

Results

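Cyclic nucleotide phosphodiesterases were examined through 10 genes, Pde1a, Pde1b, Pde1c, Pde2a, Pde3a, Pde4a, Pde4b, Pde4d, Pde5a and Pde10a, taken from a list of symbols and found as 10 count rows among the 53715 Ensembl gene rows of each library. The libraries were 72 RNA sequencing libraries from 18 male C57BL/6J mice aged 18 weeks. Of these mice 6 were Gnb5+/+, 6 Gnb5+/- and 6 Gnb5-/-, the last carrying a germline deletion of exon 3 on both copies of the gene, so that every cell of the body carried the genotype. Both heart tissues, atria and ventricles, were profiled in the 3 genotypes, and 3 brain regions (cerebral cortex, cerebellum, hippocampus) in Gnb5+/+ and Gnb5-/- mice only, which gave 12 groups of 6 libraries. Each library came from 1 mouse, and a mouse gave a library of each of its tissues. Atria and ventricles were taken whole, left and right together, and so held nodal, vascular and connective tissue beside working muscle.

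Phosphodiesterases break cAMP and cGMP down to their inactive 5′ monophosphates and so end the signals that adenylyl and guanylyl cyclases start. The families differ in what they cleave and in what controls them: PDE1 enzymes are switched on by calcium and calmodulin and cleave both nucleotides, PDE2 is stimulated and PDE3 inhibited by cGMP, PDE4 enzymes are specific for cAMP, PDE5 for cGMP, and PDE10 cleaves both. Gnb5 encodes the G protein β5 subunit, the obligate partner of R7 RGS proteins, which speed the shut-off of Gi/o proteins, and Gi proteins hold adenylyl cyclase down. In heart muscle PDE3 and PDE4 enzymes are known for limiting β-adrenergic cAMP, while in brain PDE1B and PDE10A are known for their high level in striatal medium spiny neurons.

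Depth was similar across libraries, with 29204390 to 48807435 reads on genes and a median of 38864900. Gnb5 followed the labels in each tissue, without overlap between genotypes. In atria its mean was 33.4 CPM (reads scaled to the library size times edgeR's TMM factor, which allows for differences in RNA composition) in Gnb5+/+ mice, against 17.4 CPM in Gnb5+/- and 2.06 CPM in Gnb5-/- mice. The summed atrial list (Nppa, Myl4, Myl7, Sln) followed the labels as well, at 21734 to 29858 CPM in Gnb5+/+ atria and 130 to 327 CPM in Gnb5+/+ ventricles. The Purkinje cell gene Pcp2 was at 0 in all heart libraries. The summed Purkinje list had medians of 6001 CPM in Gnb5+/+ cerebellum and 125 CPM in Gnb5+/+ atria. Some other marker lists did not follow the labels. The hippocampal neuron list had medians of 611 CPM in Gnb5+/+ hippocampus and 800 CPM in Gnb5+/+ ventricles. That of the sinoatrial node had 74.2 CPM in Gnb5+/+ atria and 183 CPM in Gnb5+/+ cerebellum. As whole tissues were sequenced, fewer cells of a type and less RNA per cell cannot be told apart. In 4 libraries the share of uniquely mapped reads that fell outside genes was below 0.667 of the median of the group. These were the ventricles of Gnb5+/- mouse 4, at 2.85% against 4.61 to 4.81% in the other 5, the cerebellum of Gnb5-/- mouse 12, at 8.02% against 14.02 to 16.6%, and the cortex of Gnb5-/- mice 14 and 3, at 6.86% and 8.32% against 13.4 to 14.9%. Several results that rest on these libraries are given with and without them.

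The make-up of the family differed between heart and brain. Levels of different genes were compared as CPM per kilobase of exon in Gnb5+/+ libraries, summed over the 10 genes. The sum was 49.8 ± 5.7 CPM per kilobase in atria, 49.1 ± 3.6 in ventricles, 49.0 ± 1.9 in cerebellum, 82.2 ± 3.1 in hippocampus and 104 ± 14 in cortex (SD, n = 6 each). Levels in different tissues depend on the scaling, since the TMM factors ran from 0.55 to 0.76 in ventricles, 0.77 to 1.00 in atria and 1.27 to 1.5 in brain. Scaled to library size alone, the sums were 41.9 ± 3.2 in atria, 30.6 ± 3.3 in ventricles, 69.5 ± 2.6 in cerebellum, 107 ± 3.7 in hippocampus and 138 ± 18 in cortex, so the likeness of heart and cerebellum held only with the TMM factors. Under that scaling the median log2 ratio of all genes moved from -0.22 to -1.08 in heart over brain and from 0.00 to 0.44 in atria over ventricles. Shares within a tissue do not change with it. In ventricles Pde4a made up 36.3 ± 3.9% of that sum and Pde3a 30.9 ± 2.2%. Pde4a, Pde3a and Pde4b held the first 3 places in both heart tissues. Pde1a led in hippocampus, with 39.1 ± 1.2%, and Pde1b in cortex, with 36.6 ± 3.0%. Cerebellum had no single leader, since Pde5a made up 22.5 ± 1.3% and Pde10a 22.1 ± 3.4%. The share of Pde2a is uncertain in all 5 tissues, and the direction of its error was not tested. Its gene model (ENSMUSG00000110195) shares 3955 of 6149 exonic bases on the same strand with ENSMUSG00000030653 (Gm45837), and reads that fall in 2 genes were not assigned to either. Its level per kilobase used the 2194 bases that are not shared, and its counts are uncertain throughout.

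**Figure D1:**
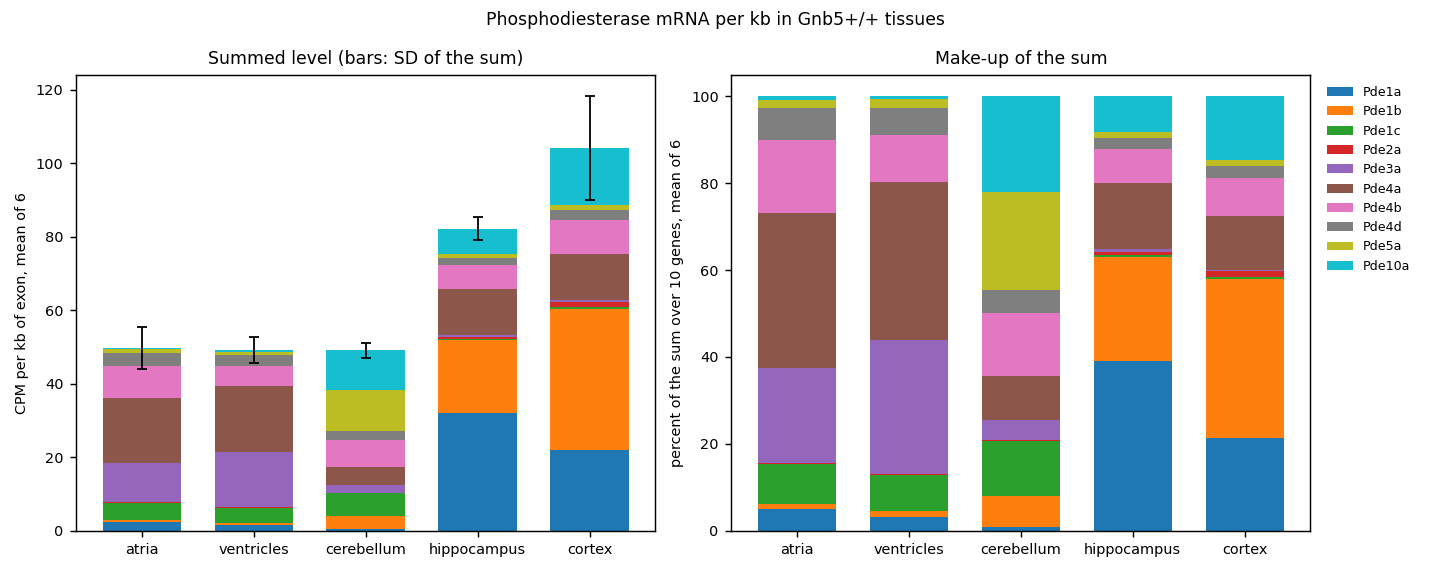
Stacked level of the 10 genes in Gnb5+/+ tissues, in CPM per kilobase of exon on the left, where black bars give the SD of the sum over 6 libraries, and as a percentage of the sum on the right. Pde4a and Pde3a take the largest parts of both heart columns, Pde1a of hippocampus and Pde1b of cortex, and the cortex column is the highest, at 104 CPM per kilobase.

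**Figure D2:**
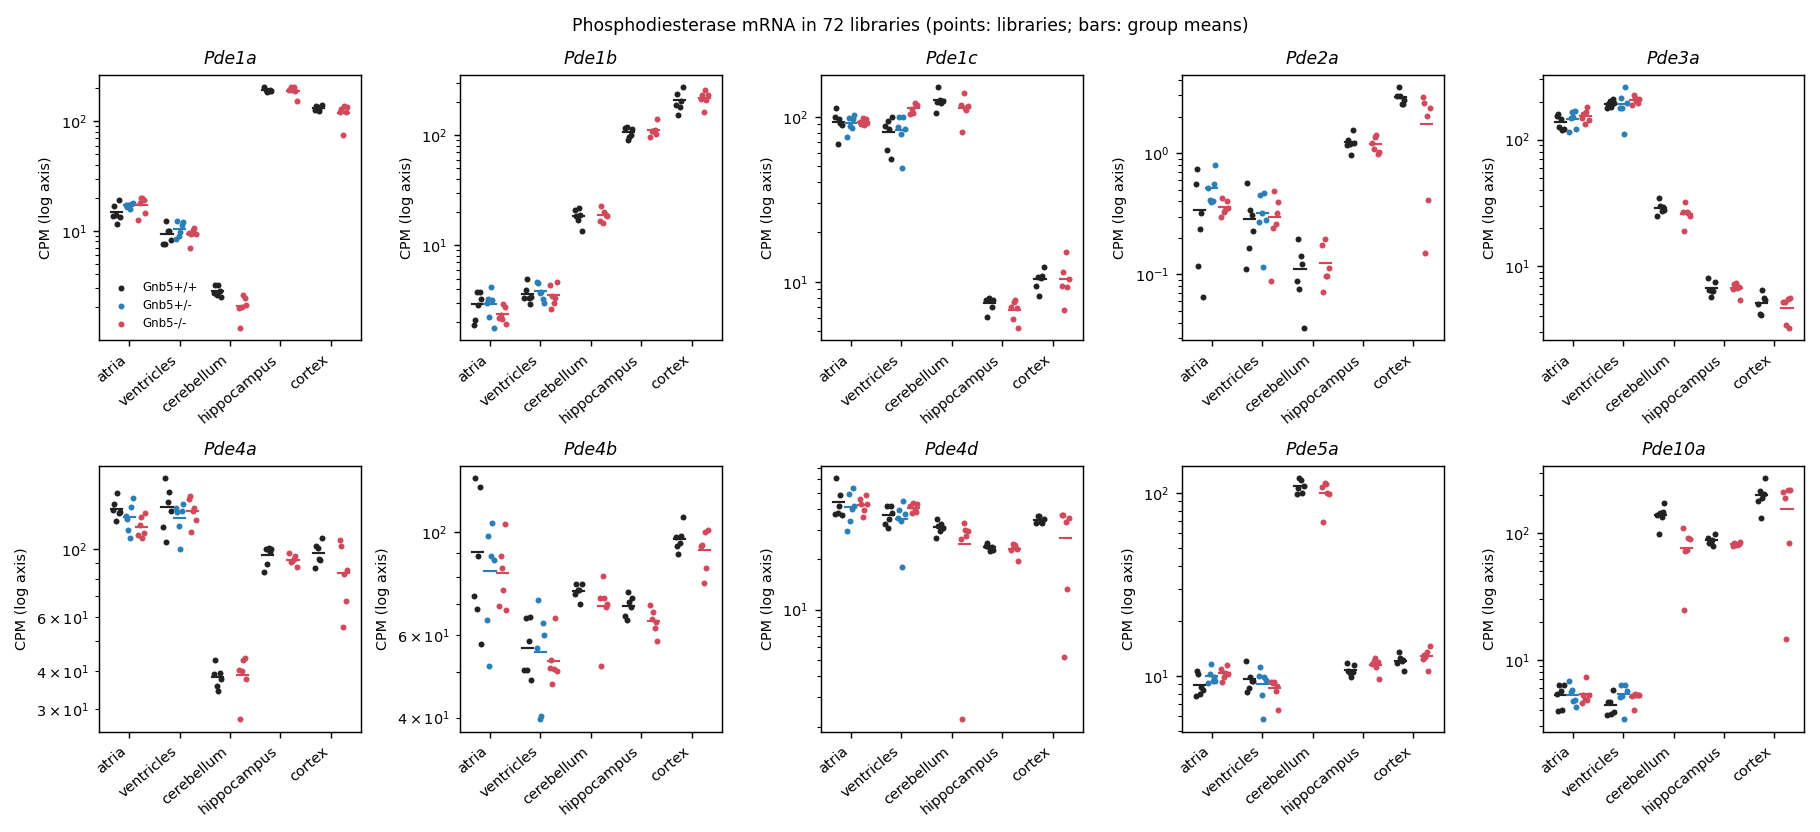
Level of each gene in CPM on a log axis, by tissue and genotype, with 1 point for each of the 72 libraries and a bar for the group mean. The tissues differ by up to 70.4-fold (Pde1b, cortex over atria), the genotypes of a tissue largely overlap, and single points of Pde4d, Pde10a and Pde2a lie far below their groups in cerebellum or cortex.

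The calcium- and calmodulin-activated genes each had a tissue order of their own. Pde1a (ENSMUSG00000059173, chromosome 2, 79834453 to 80129458, minus strand) had a lowest, median and highest level of 185, 192 and 204 CPM in Gnb5+/+ hippocampus. The same 3 values were 124, 131 and 142 CPM in cortex and 2.48, 2.77 and 3.22 CPM in cerebellum. Hippocampus thus stood above cortex in all libraries, and its mean was 67.9 times that of cerebellum. Atria (14.8 ± 2.7 CPM) and ventricles (9.30 ± 1.8 CPM) lay between and their ranges overlapped, although the means differed in the test, the log2 ratio of atria over ventricles being 0.66 (SE 0.15, adjusted p = 0.00141, edgeR's quasi-likelihood test with Benjamini-Hochberg adjustment over all genes, as for all adjusted p below).

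Pde1b (ENSMUSG00000022489, chromosome 15, 103503034 to 103530052, plus strand) was highest in cortex, with a lowest, median and highest level of 152, 198 and 277 CPM. It fell to 91.4, 108 and 118 CPM in hippocampus and 13.6, 18.8 and 21.6 CPM in cerebellum. These 3 regions did not overlap. Heart levels were 3.64 ± 0.71 CPM in ventricles and 2.95 ± 0.81 CPM in atria, which overlapped (log2 ratio of atria over ventricles -0.31, SE 0.20, adjusted p = 0.215, and 0.14 with library size alone).

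Pde1c (ENSMUSG00000004347, chromosome 6, 56069804 to 56569103, minus strand) had nearly the reverse order. Its lowest, median and highest levels were 105, 124 and 152 CPM in cerebellum, 68.5, 94.2 and 112 CPM in atria and 55.2, 85.9 and 99.4 CPM in ventricles. Neighbouring tissues among these 3 overlapped. Cortex (10.3 ± 1.4 CPM) and hippocampus (7.40 ± 0.71 CPM) lay apart from them, at the low end. Over the 72 libraries the log2 levels of Pde1a and Pde1c had a Pearson correlation of -0.92, a description only, since libraries of 1 tissue form a cluster.

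Pde3a, the cGMP-inhibited cAMP phosphodiesterase of heart muscle (ENSMUSG00000041741, chromosome 6, 141249269 to 141507448, plus strand), was the gene with the largest excess in heart. It reached a lowest, median and highest level of 177, 192 and 210 CPM in ventricles and 120, 135 and 158 CPM in atria. The ventricles thus lay above the atria in every library, and the atria were lower by a log2 ratio of -0.50 (SE 0.09, adjusted p = 0.000164). With library size alone this call was lost (-0.05, SE 0.09, adjusted p = 0.632) and the ranges overlapped. Cerebellum held 28.9 ± 3.4 CPM, hippocampus 6.74 ± 0.90 CPM and cortex 5.12 ± 0.92 CPM. The heart mean was above the brain mean by 3.98 on the log2 scale (SE 0.06, adjusted p = 5.49e-32), or by 3.13 with library size alone.

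The cAMP-specific genes varied least between tissues, with at most 3.58-fold between the highest and the lowest mean against 12.1-fold or more for the other 7 (3.65-fold and 17.7-fold with library size alone). Which tissue was highest for Pde4a and Pde4d depended on the scaling: it was ventricles and atria with the TMM factors and cortex for both genes with library size alone. Pde4a (ENSMUSG00000032177, chromosome 9, 21165714 to 21213248, plus strand, 54.1 Mb from Gnb5) had medians of 137 CPM in ventricles (105 to 170) and 133 CPM in atria (123 to 152), which overlapped. Cortex and hippocampus lay lower and overlapped each other, with means of 97.0 ± 8.0 and 95.2 ± 6.8 CPM, and cerebellum was lowest with 38.3 ± 3.1 CPM. Pde4b (ENSMUSG00000028525, chromosome 4, 102087543 to 102607259, plus strand) ran from 96.7 ± 6.0 CPM in cortex to 56.5 ± 7.8 CPM in ventricles, and each tissue overlapped the next in that order. Its atrial level was the most spread of all, with 57.5 CPM in the lowest, 80.8 in the median and 130 in the highest library. Pde4d (ENSMUSG00000021699, chromosome 13, 108449948 to 109953461, plus strand) stayed within 1.86-fold, from 43.9 ± 9.6 CPM in atria to 23.6 ± 0.87 CPM in hippocampus, and hippocampus alone lay apart from its neighbour in the order.

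Several PDE4 transcripts are known to be induced by cAMP, the nucleotide their products remove, so the sequence before their start sites is shown. RefSeq start sites (GRCm38.p6) matched 9 of the 10 genes with 26 windows of 250 bases before the start; Pde3a had no entry. The motif searched was TGACGT on both strands, the core of the cAMP response element. It was in 6.47% of all 32851 windows and in 2 of the 26. Those were 1 window each of Pde4a and Pde4b, printed here with 1 window of Pde4d that lacks the motif. Sequences run 5′ to 3′ on the plus strand with the motif in capitals (as its reverse complement), at chr9:21183851-21184100, chr4:102421305-102421554 and chr13:108653927-108654176. The match is a description of the letters and not a measured binding site.
Pde4a: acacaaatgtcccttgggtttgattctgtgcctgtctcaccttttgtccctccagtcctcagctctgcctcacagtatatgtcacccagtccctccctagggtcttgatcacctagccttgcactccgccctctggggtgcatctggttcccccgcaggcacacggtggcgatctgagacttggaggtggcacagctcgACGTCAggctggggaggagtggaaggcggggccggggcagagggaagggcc
Pde4b: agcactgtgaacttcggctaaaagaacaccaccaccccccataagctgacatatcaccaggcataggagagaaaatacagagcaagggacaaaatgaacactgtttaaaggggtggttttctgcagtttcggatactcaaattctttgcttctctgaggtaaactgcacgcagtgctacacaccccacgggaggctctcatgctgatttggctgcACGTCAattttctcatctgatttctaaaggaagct
Pde4d: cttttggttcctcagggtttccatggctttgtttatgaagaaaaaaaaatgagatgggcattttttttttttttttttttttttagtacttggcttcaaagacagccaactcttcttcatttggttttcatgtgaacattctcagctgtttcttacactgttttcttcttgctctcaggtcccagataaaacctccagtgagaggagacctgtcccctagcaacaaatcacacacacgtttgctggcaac

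Of the cGMP enzymes, Pde5a (ENSMUSG00000053965, chromosome 3, 122728947 to 122859374, plus strand), which is specific for cGMP, was a cerebellar gene in these tissues. Its lowest, median and highest levels there were 98.1, 108 and 121 CPM, and no library of another Gnb5+/+ tissue exceeded 13.5 CPM. Cortex (12.1 ± 0.96 CPM), hippocampus (10.8 ± 0.72 CPM), ventricles (9.57 ± 1.3 CPM) and atria (8.94 ± 1.2 CPM) each overlapped the next. The cerebellum was above cortex by 3.22 on the log2 scale (SE 0.06, adjusted p = 2.88e-20). Pde2a, the cGMP-stimulated enzyme (chromosome 7, 101421691 to 101512827, plus strand), was counted at 2.89 ± 0.37 CPM in cortex and 1.23 ± 0.19 CPM in hippocampus, and at 0.339 CPM or less on average in the other 3 tissues. These are the uncertain undercounts described above, with 2 to 21 reads per library in Gnb5+/+ atria.

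Pde10a (ENSMUSG00000023868, chromosome 17, 8525372 to 8986648, plus strand), which cleaves both nucleotides, was a brain gene. Its lowest, median and highest levels were 132, 196 and 274 CPM in cortex, 98.6, 142 and 173 CPM in cerebellum and 79.1, 86.1 and 98.8 CPM in hippocampus. Cortex and cerebellum overlapped, as did cerebellum and hippocampus. Atria (5.29 ± 1.1 CPM) and ventricles (4.36 ± 0.80 CPM) were lower than brain by a log2 ratio of -4.84 (SE 0.11, adjusted p = 8.75e-28).

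The spread of Pde10a and Pde1b in Gnb5+/+ cortex went with markers of striatal medium spiny neurons. The summed striatal list (10 genes, among them Drd1, Drd2, Adora2a and Penk) ranged from 284 to 666 CPM in Gnb5+/+ cortex. Its Gnb5+/+ median was 67.5 CPM in hippocampus, 127 CPM in cerebellum and 106 CPM in atria. None of the 10 genes was at 0 in all cortex libraries, and the dopamine receptor gene Drd1 had a mean of 26.2 CPM there. Mouse 17 was lowest for the list, for Pde10a (132 CPM) and for Pde1b (152 CPM), and mouse 8 was highest for all 3 (666, 274 and 277 CPM). Gnb5-/- cortex as a whole did not show this order. Mouse 14, low in reads outside genes, was highest of that group for the list (970 CPM) and lowest for Pde10a (14.7 CPM) and Pde1b (162 CPM). The part of the striatal signal in these cortical levels was not tested.

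**Figure D3:**
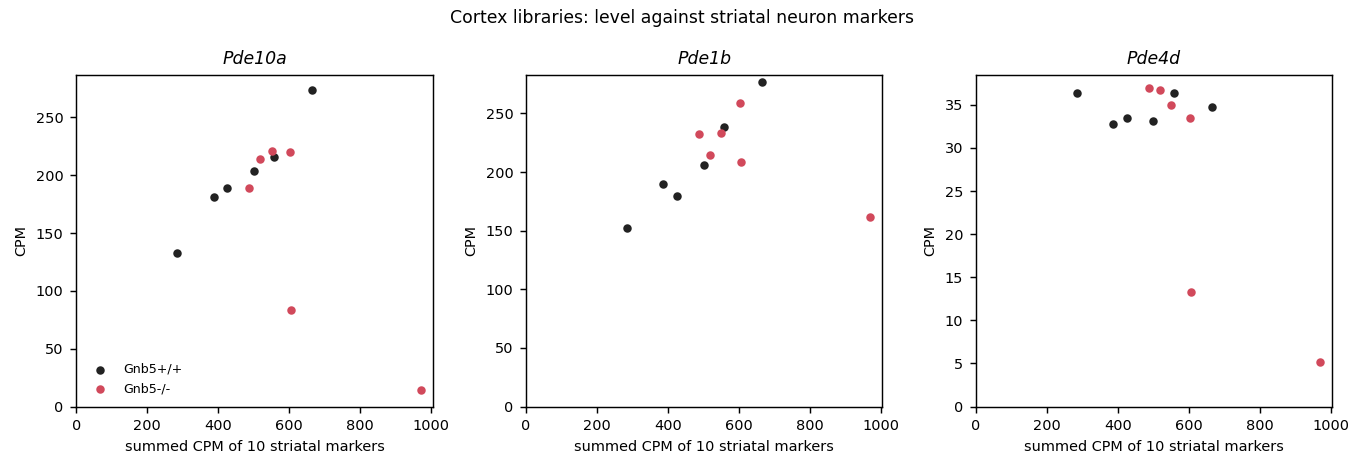
Level of Pde10a, Pde1b and Pde4d in CPM against the summed CPM of 10 striatal medium spiny neuron markers in the cortex libraries, with 1 point for each library. Among Gnb5+/+ libraries the one with the least marker signal (284 CPM) is lowest for Pde10a and Pde1b and the one with the most (666 CPM) is highest, while the Gnb5-/- library with 970 CPM of marker signal has 14.7 CPM of Pde10a.

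Tests between Gnb5+/+ tissues called most members, as they called most genes. Heart and brain differed for 10 of 10 members, 4 higher and 6 lower in heart. Of all genes tested 90.9% were called, 40.7% as higher and 50.2% as lower. With library size alone 2 members (Pde1c and Pde3a) were higher and 7 lower in heart, against 25.2% and 67.9% of all genes. Pde4d turned to -0.45 (SE 0.06, adjusted p = 1.87e-08) from 0.41 and Pde4a fell short at 0.05 (adjusted p = 0.372) from 0.91. The smallest of the differences with the TMM factors was that of Pde4b, at -0.20 (SE 0.08, adjusted p = 0.0245), close to the median of all genes in that comparison, -0.22. Cerebellum and cortex differed for 9 of 10 members, 3 higher and 6 lower in cerebellum (77.4% of all genes, 37.2% higher and 40.3% lower), Pde4d falling short at -0.10 (SE 0.05, adjusted p = 0.0855). It passed with the mouse as a block (-0.10, SE 0.04, adjusted p = 0.0232), the tissues being from the same animals. Cerebellum and hippocampus differed for 10 of 10 (77.2%, 37.6% higher and 39.5% lower), with Pde1c, Pde3a, Pde4b, Pde4d, Pde5a and Pde10a higher and the other 4 lower in cerebellum. Hippocampus and cortex differed for 9 of 10 (48.3%, 23.8% higher and 24.6% lower). Pde1a and Pde3a were higher in hippocampus and 7 were lower, and Pde4a did not pass, at -0.02 (SE 0.06, adjusted p = 0.846). Atria and ventricles differed for 3 of 9 (50.2%, 24.5% higher and 25.6% lower), with Pde1a and Pde4b higher (log2 ratios 0.66 and 0.67) and Pde3a lower in atria. With library size alone 7 of 9 were higher in atria and none lower, against 57.1% and 9.15% of all genes. With the mouse as a block Pde4d passed as well in that comparison (0.24, SE 0.09, adjusted p = 0.0394). In Gnb5-/- libraries the comparison of atria with ventricles called 7 of 9 members (61.1% of all genes), among them Pde1c, lower in atria by a log2 ratio of -0.28 (SE 0.06, adjusted p = 0.000439), where the Gnb5+/+ libraries gave 0.20 (SE 0.15, adjusted p = 0.285). Cerebellum and hippocampus gave 0.72 (SE 0.13) for Pde10a in Gnb5+/+ libraries and -0.05 (SE 0.42) in Gnb5-/- libraries, or 0.13 (SE 0.08) without those low in reads outside genes. Between hippocampus and cortex 5 of 10 members were called in Gnb5-/- libraries (21.6% of all genes), the 2 low cortex libraries included. Without the libraries low in reads outside genes, Pde2a, Pde4d, Pde5a and Pde10a passed there as well (adjusted p = 4.41e-05, 1.28e-06, 0.0302 and 2.06e-09). Pde4a alone then fell short (adjusted p = 0.892). The share of all genes called under that setting is not given here, so the count is not read as a result about the members. In hippocampus against cortex the call of Pde5a in Gnb5+/+ libraries, at -0.16 (SE 0.06, adjusted p = 0.0499), lay at the threshold. It was lost with the mouse as a block (adjusted p = 0.0607) and with DESeq2 (0.0750). The same held with DESeq2's size factors within edgeR (0.0518) and without the filter on low counts (0.113).

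The main question of the series was what loss of Gnb5 changes. In none of the 7 comparisons of a mutant genotype with Gnb5+/+ did a member pass the threshold, by edgeR or by DESeq2. The share of all genes called was 0.253% for Gnb5-/- and 0.0124% for Gnb5+/- in atria. In ventricles the shares were 0.188% and 0.0202%, and for Gnb5-/- they were 0.0817% in cerebellum, 0.165% in hippocampus and 0.0557% in cortex. At such shares no call among 10 genes does not set the members apart from other genes. Of 67 tests of members 6 had an unadjusted p below 0.05, in comparisons where 4.78 to 8.15% of all genes did. The 95% interval lay within 0.5 on the log2 scale in either direction for 53 of the 67. Pde2a was not tested in ventricles and cerebellum, where it was dropped for its low counts.

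**Figure D4:**
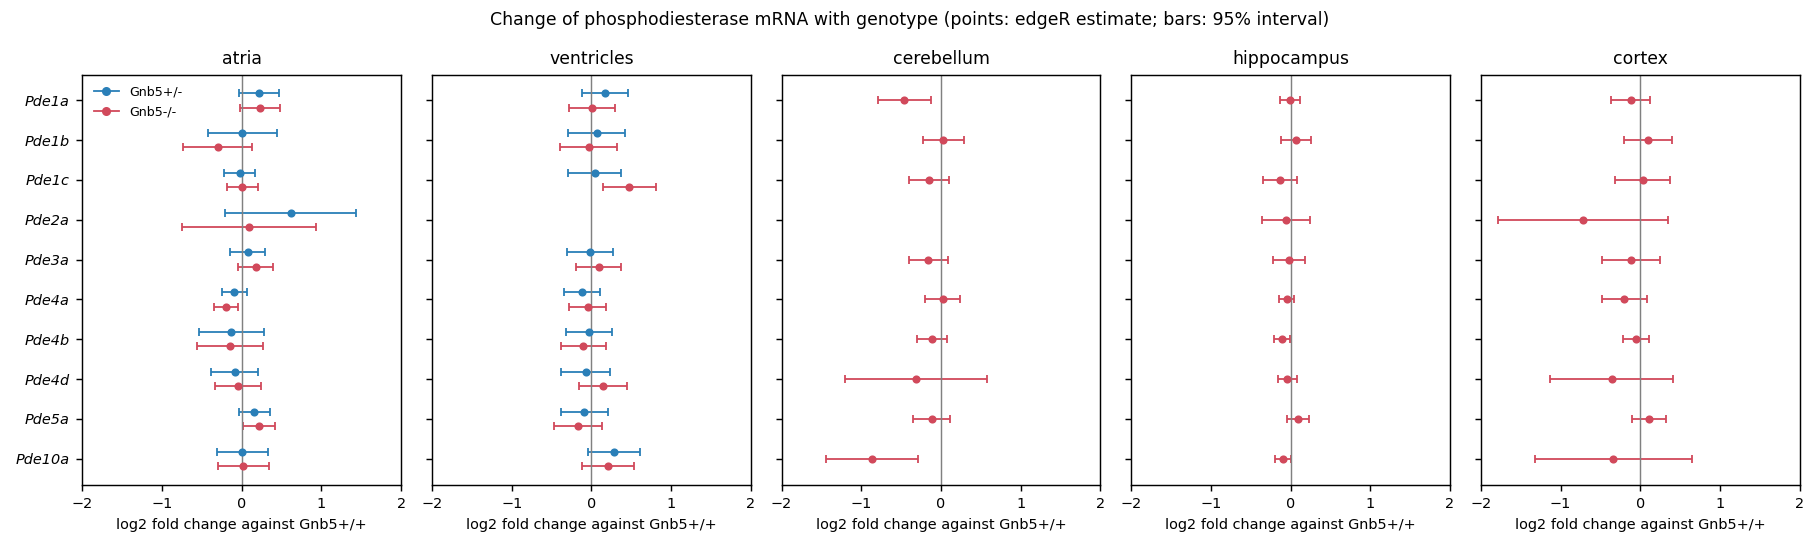
Log2 ratio of each gene against Gnb5+/+ in each tissue, with its 95% interval from edgeR, in Gnb5+/- (heart only) and Gnb5-/- mice. Most intervals cross 0; Pde10a in cerebellum (-0.86) and Pde1c in ventricles (0.48) lie farthest from it among those that do not, and the intervals of Pde2a and Pde10a are widest in cortex and that of Pde4d in cerebellum.

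The change with the lowest unadjusted p in ventricles was that of Pde1c, the calcium-activated enzyme known from heart muscle. Its lowest, median and highest levels were 104, 115 and 121 CPM in Gnb5-/-, 55.2, 85.9 and 99.4 CPM in Gnb5+/+ and 48.8, 85.4 and 100 CPM in Gnb5+/- ventricles. All 6 Gnb5-/- libraries lay above all 6 Gnb5+/+ libraries, which held in that direction for 0.274% of 20471 genes. The log2 ratio was 0.48 (SE 0.16, 95% interval 0.15 to 0.81, 1.39-fold), and edgeR's adjusted p was 0.641. The exact permutation test of the 6 and 6 libraries gave p = 0.00216, the smallest it can give, and 0.101 after adjustment over the 70 such tests of members. In atria the median of the same gene was 92.2 CPM in Gnb5-/- and 94.2 CPM in Gnb5+/+ libraries, with a log2 ratio of 0.00 (SE 0.09, interval -0.19 to 0.20). The difference of the effect between ventricles and atria was 0.49 (SE 0.17, adjusted p = 0.920), and no member passed in that comparison (0.00622% of all genes called, 2 members at an unadjusted p below 0.05). The difference for Pde1c passed without the filter on low counts (adjusted p = 0.0286 from edgeR). The share of all genes called in that unfiltered fit is not given here, so this call is not read alone. Without the Gnb5+/- library of mouse 4, which enters through the shared estimate of the spread, the adjusted p of Pde1c in ventricles was 0.154.

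In cerebellum Pde10a had the largest change among the members. Its lowest, median and highest levels were 24.6, 81.9 and 110 CPM in Gnb5-/- and 98.6, 142 and 173 CPM in Gnb5+/+ mice. All 6 Gnb5-/- libraries lay below the Gnb5+/+ mean of 140 CPM, and only the highest of them reached into the Gnb5+/+ range. The log2 ratio was -0.86 (SE 0.27, interval -1.44 to -0.28, adjusted p = 0.583 from edgeR), and the exact permutation test gave p = 0.00433 (0.101 adjusted over the 70). The lowest library, that of mouse 12, was also the one low in reads outside genes. It carried 628 CPM of choroid plexus markers against 9.36 to 14.7 CPM in the other Gnb5-/- cerebella, and 312 CPM of striatal markers against 120 to 159 CPM. Without it the Gnb5-/- level was 87.5 ± 15.6 CPM (n = 5), the log2 ratio was -0.68 (SE 0.13, interval -0.95 to -0.40) and Pde10a passed the threshold, with an adjusted p of 0.0384 from edgeR. It was then the single member called, where 0.359% of all genes were. The exact permutation test without mouse 12 gave p = 0.00649.

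Other brain regions gave smaller values for Pde10a. In hippocampus the median was 82.2 CPM in Gnb5-/- and 86.1 CPM in Gnb5+/+ mice, with a log2 ratio of -0.10 (SE 0.05, interval -0.20 to 0.00, adjusted p = 0.656). In cortex it was -0.34 (SE 0.46) with all libraries and 0.08 (SE 0.14, interval -0.22 to 0.39) without the 2 libraries low in reads outside genes. The difference of the effect between hippocampus and cerebellum was 0.82 (SE 0.49, adjusted p = 0.884), and 0.60 (SE 0.15, adjusted p = 0.164) without those libraries. Between cortex and cerebellum it was 0.42 (SE 0.50, adjusted p = 1.0), and 0.77 (SE 0.17, adjusted p = 0.0853) without them. An effect particular to cerebellum was thus not shown by these tests, in which no member passed with all libraries (0.0258% and 0.0103% of all genes called, 1 member at an unadjusted p below 0.05 in each).

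Pde1a, already lowest in cerebellum, was at 2.06 ± 0.45 CPM in Gnb5-/- and 2.84 ± 0.31 CPM in Gnb5+/+ cerebellum. All 6 Gnb5-/- libraries lay below the Gnb5+/+ mean, and the ranges overlapped. The log2 ratio was -0.46 (SE 0.15, adjusted p = 0.583 from edgeR), and -0.36 (adjusted p = 0.261) without mouse 12. The other values with an unadjusted p below 0.05 were small. In Gnb5-/- atria Pde4a was at -0.19 (SE 0.07, adjusted p = 0.447) and Pde5a at 0.21 (SE 0.09, adjusted p = 0.554). In Gnb5-/- hippocampus Pde4b was at -0.11 (SE 0.05, adjusted p = 0.610). In Gnb5+/- mice, whose Gnb5 level lay between the other genotypes, Pde4a in atria was at -0.09 (SE 0.07) and Pde1c in ventricles at 0.04 (SE 0.16), or 0.16 (SE 0.13) without mouse 4. Pde10a in Gnb5+/- ventricles was at 0.28 (adjusted p = 0.961 from edgeR). Without mouse 4 it was at 0.39 (SE 0.13, interval 0.11 to 0.67, adjusted p = 0.708). Of the values that missed an unadjusted p of 0.05 in atria, the largest were those of Pde2a in Gnb5+/- mice, at 0.61 (SE 0.39, interval -0.20 to 1.43, on its few reads), and Pde1b in Gnb5-/- mice, at -0.30 (SE 0.21, interval -0.74 to 0.13).

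Pde4a and Pde3a, which made up the largest shares in both heart tissues, did not pass the threshold in either mutant genotype. Pde3a in ventricles had a lowest, median and highest level of 177, 192 and 210 CPM in Gnb5+/+ libraries. The same values were 110, 188 and 262 CPM for Gnb5+/- and 189, 206 and 226 CPM for Gnb5-/- mice. The 3 genotypes overlapped, with a log2 ratio of 0.09 for Gnb5-/- (SE 0.14, interval -0.19 to 0.38) and -0.02 for Gnb5+/- (SE 0.14, interval -0.30 to 0.27), the latter turning to 0.10 (SE 0.09) without mouse 4. Pde4a in ventricles had medians of 137, 132 and 134 CPM in the same order of genotypes, with -0.05 for Gnb5-/- (interval -0.28 to 0.18) and -0.12 for Gnb5+/- (interval -0.35 to 0.11), or -0.05 (SE 0.10) without mouse 4. Pde4b was at -0.10 in Gnb5-/- ventricles (interval -0.38 to 0.18) and at -0.15 in Gnb5-/- atria (interval -0.56 to 0.26), where its spread was widest. Pde4d was at 0.15 (interval -0.16 to 0.45) and -0.05 (interval -0.34 to 0.25). In atria Pde3a had medians of 135, 150 and 153 CPM in that order, and its change in Gnb5-/- atria was 0.17 (interval -0.05 to 0.39).

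In brain, hippocampal Pde1a had a median of 192 CPM in Gnb5+/+ and 195 CPM in Gnb5-/- mice, with a log2 ratio of -0.01 (SE 0.06, interval -0.14 to 0.11). The negative value went with 1 low Gnb5-/- library, at 154 CPM (mouse 5). Cortical Pde1b had medians of 198 and 224 CPM, and a change of 0.09 (SE 0.14, interval -0.21 to 0.39). Without the 2 libraries low in reads outside genes this was 0.18 (SE 0.13). Cerebellar Pde5a had medians of 108 and 104 CPM, and a change of -0.11 (SE 0.11, interval -0.35 to 0.12), or -0.03 (SE 0.06) without mouse 12. Cerebellar Pde1c had medians of 124 and 115 CPM, and a change of -0.15 (SE 0.12, interval -0.40 to 0.10), or -0.08 (SE 0.08) without it. The hippocampus had the narrowest intervals, within 0.21 on the log2 scale in either direction for Pde1a, Pde4a, Pde4b, Pde4d and Pde10a. The Gnb5+/+ and Gnb5-/- groups overlapped for each gene of this paragraph.

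In each of the 4 libraries low in reads outside genes, Pde1c, Pde3a, Pde4a, Pde4d and Pde10a were below all other libraries of their group that were not low. The size differed, from 1.25 to 1.84-fold below their mean for Pde1c, 1.44 to 1.87-fold for Pde3a and 1.32 to 1.69-fold for Pde4a to 1.69 to 14.3-fold for Pde10a and 2.11 to 13.3-fold for Pde4d. Many other genes fell as far as the first 3. Over the 4 libraries, 8.12 to 30.1% of genes were as low or lower than Pde1c relative to the rest. The shares were 7.75 to 34.5% for Pde3a, 19.0 to 30.8% for Pde4a, 2.21 to 10.8% for Pde10a and 1.53 to 5.03% for Pde4d. In cerebellum Pde4d was at 2.21 CPM in Gnb5-/- mouse 12 and at 26.4 to 33.1 CPM in the other 5 Gnb5-/- libraries. That was 13.3-fold below their mean, and 1.53% of 13711 genes were as low or lower in that library relative to the same 5. In cortex it was at 5.19 CPM in mouse 14 and 13.3 CPM in mouse 3 and at 33.5 to 36.9 CPM in the other 4. In ventricles it was at 18.0 CPM in Gnb5+/- mouse 4 and at 34.0 to 44.6 CPM in the rest.

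Pde10a was at 14.7 CPM in the cortex of mouse 14 and 83.4 CPM in that of mouse 3 against 189 to 221 CPM, and the uncertain counts of Pde2a were at 0.150 and 0.408 CPM against 2.03 to 2.93 CPM. Pde1b was less uniform. In cortex it was at 162 CPM in mouse 14 and 209 CPM in mouse 3, below the 215 to 259 CPM of the other 4. In the cerebellum of mouse 12 it was at 22.7 CPM, above the 16.01 to 19.9 CPM of the other 5, and in the ventricles of mouse 4 it lay within its group. Pde5a in the cortex of mouse 14, at 12.7 CPM, lay within the 12.4 to 14.6 CPM of the rest. Of all genes compared, 5.75 to 23.7% were at 0.5 times the mean of the rest or less in these libraries. With them left out, the log2 ratio of Pde2a in Gnb5-/- cortex moved from -0.72 (SE 0.49) to -0.22 (SE 0.13, adjusted p = 0.979). That of Pde4d moved from -0.36 (SE 0.36) to 0.05 (SE 0.05, interval -0.06 to 0.15), and in cerebellum the Gnb5-/- level was 29.3 ± 2.6 CPM (n = 5) against 31.0 ± 2.6 CPM in Gnb5+/+. The log2 ratio of Pde4d in Gnb5-/- cerebellum moved from -0.32 to -0.08 (SE 0.07). In Gnb5-/- cortex that of Pde1a moved from -0.12 to -0.01 (SE 0.05) and that of Pde4a from -0.20 to -0.04 (SE 0.08). The part of the lower share of reads outside genes and of the marker signal in these values was not tested.

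**Figure D5:**
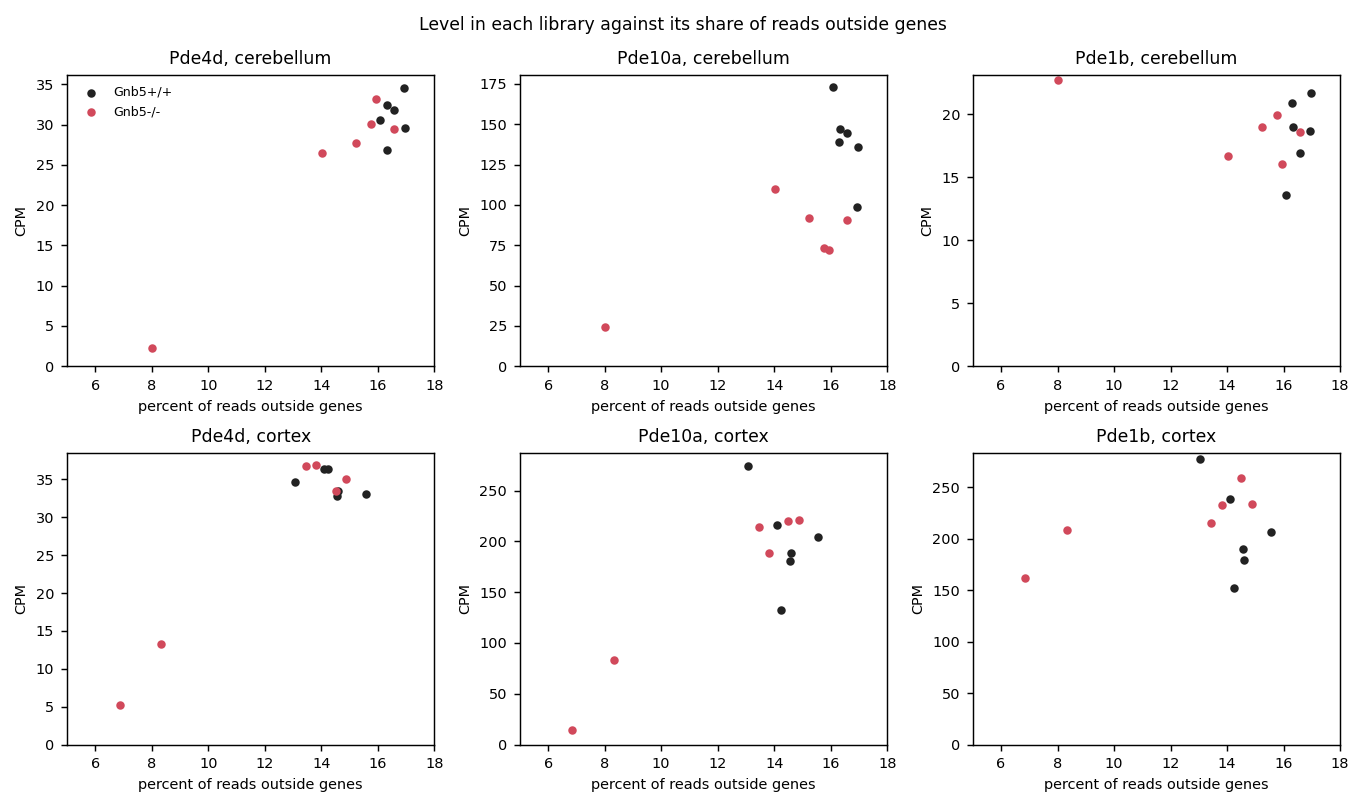
Level of Pde4d, Pde10a and Pde1b in CPM against the percentage of uniquely mapped reads outside genes, in cerebellum (top) and cortex (bottom), with 1 point for each library. The Gnb5-/- libraries at 8.02% in cerebellum and at 6.86% and 8.32% in cortex lie below all others for Pde4d and Pde10a, while for Pde1b the one in cerebellum lies above all others.

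The rest of the cyclic nucleotide pathway was read from 4 lists, of 14 other genes with phosphodiesterase symbols, 21 cyclases, 25 effectors and 17 anchors or regulators of phosphodiesterases and protein kinase A. None of their genes passed the threshold of edgeR's test in any of the 7 comparisons with Gnb5+/+, and 34 of the 446 tests (7.62%) had an unadjusted p below 0.05, against 6.62% of the tests of all genes. Nearest to it was Adcy1, a calmodulin-stimulated adenylyl cyclase, in Gnb5-/- ventricles, at 0.87 (SE 0.19, adjusted p = 0.0857), on a Gnb5+/+ level of 0.311 CPM per kilobase. Between Gnb5+/+ tissues many passed. In atria against ventricles, where 24.5% of all genes were higher and 25.6% lower, 9 of 16 tested cyclases were higher and 3 lower, and 2 of 21 effectors were higher and 10 lower. With library size alone these counts were 13 and 3 for cyclases and 8 and 5 for effectors. In cerebellum against cortex 4 of 22 effectors were higher and 17 lower, under both scalings, where 37.2% of all genes were higher and 40.3% lower with the TMM factors. Per kilobase, the most abundant cyclase of heart was Adcy6 (53.1 CPM per kilobase in atria, 42.5 in ventricles) and that of brain Adcy1 (166 in cerebellum, 80.1 in hippocampus, 74.4 in cortex). Among the genes listed by symbol as other phosphodiesterases, Pde6d, Pde7a and Pde8a led in heart, and Pde8b, Pde6d and Pde9a in brain. Whether the product of each cleaves a cyclic nucleotide was not examined. The cAMP-binding membrane protein gene Popdc2 (223 CPM per kilobase in ventricles) and the protein kinase A regulatory subunit gene Prkar1a (153 in ventricles, 129 in hippocampus) led the effectors.

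Genes whose level followed a member most closely were taken by Pearson correlation of log2 CPM over the 72 libraries, among 13882 protein-coding genes outside the family. The values describe mainly the tissue order, which the libraries share. Pde3a was nearest to Casq2 (0.99), the cardiac calsequestrin of the sarcoplasmic reticulum, then Ctnna3 and Kcnv2. Pde5a was nearest to Skor2 (0.98), a Purkinje cell transcription regulator, then Icmt and Uncx. Pde1a was nearest to Cpne7, Rgs14 and Enc1 (0.98 each), Pde1b to Sstr2, Chst1 and Mak (0.99 each), Pde1c to Ebf1 and Meis1 (0.98 each) and Pde10a to Slc23a2, Prex1 and Ipo9 (0.98 each). The PDE4 genes, which differed least between tissues, had lower highest values, with 0.96 for Pde4a (St3gal1), 0.90 for Pde4d (Atp7a) and 0.76 for Pde4b (Chrdl1).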

How the data were processed

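The authors deposited whole-number read counts per gene for each of the 72 libraries, and no normalised unit was used. Per the labels and the study's methods, total RNA was made into stranded libraries (TruSeq) and sequenced as single reads of 125 cycles, reads were trimmed with cutadapt 1.8, ribosomal and low-complexity reads were removed, and the rest was aligned with STAR 2.5.3a to GRCm38 and counted with HTSeq 0.9.1, which leaves reads that fall in more than 1 gene unassigned. Rows that name no gene stayed out of library sizes and tests. Of the uniquely mapped reads, they held 2.85 to 17.0% outside genes and 0.83 to 1.5% ambiguous between genes. Gene symbols, positions and exon lengths came from the GENCODE M21 annotation of the same build, which matched 53620 of the 53715 gene IDs.

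Genes were tested with edgeR 4.0.16 (R 4.3.3; TMM factors, filterByExpr with a count minimum of 10, glmQLFit and glmQLFTest) on the whole table, with Benjamini-Hochberg adjustment over all genes tested and a threshold of 0.05. The fit for a tissue held all its genotypes, and differences of effect between tissues were fitted with the mouse as a block. The main tests between Gnb5+/+ tissues had no block and so treated libraries of the same mouse as independent. Intervals are 95% intervals from the fitted log2 fold change and its standard error. Exact permutation tests were two-sided, on log2 CPM with a prior count of 2. The fits were tested on simulated data. Alternatives were DESeq2 1.42.0, its size factors within edgeR, no filter, a stricter filter, a robust fit, replicate or mouse blocks, the compared genotypes alone, and each knockout or wild-type library left out. Leaving out the libraries low in reads outside genes, and scaling tissue comparisons to library size alone, were alternatives chosen after seeing the data. Replicate numbers shared by genotypes join different animals, while mouse numbers join tissues of the same animal. Deviations of Gnb5+/+ libraries from their tissue means correlated at 0.113 to 0.679 between tissues of the same mouse, all over 0.1. No pair of libraries of 1 group was identical among 180, and the lowest chi-square per degree of freedom between them was 6.40.

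All 10 members were to be named, and those not given singly in a comparison are covered by its counts. Of the other lists, genes called with genotype and the 3 with the highest mean level per kilobase in heart or brain were named, with the list gene nearest to the threshold added after its value was seen. For likeness of pattern the 3 genes with the highest correlation were named, among protein-coding genes with a mean of at least 1 CPM. Some genes that these rules select are not reported here. The members and lists were chosen with earlier results of these data known. Within a group the libraries came from separate mice, while libraries of different tissues shared mice. Counting error weighs most for Pde2a, and also for Pde1b in heart (51 to 155 reads per library) and Pde10a in ventricles (59 to 153). CPM used TMM factors over the 72 libraries, from 0.55 to 1.5.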

Additional observations from a re-analysis of the deposited data

Results flagged for a closer look

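Each gene was looked at in each of the 12 groups of 6 libraries, and a library was set aside for a closer look where its gap to the nearest other library was more than 0.625 of the range of the group (Dixon's 95% critical value). This held for 18 of 120 groups. For a single group of independent values chance alone gives about 1 in 20. The 120 groups share libraries and are not separate draws, so that rate is no measure for their sum. The rate over all genes was not computed.

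In the Gnb5-/- cerebellum mouse 12, the library low in reads outside genes, stood apart at the low end for 5 genes by this measure. Pde4d was at 2.21 CPM against 26.4 to 33.1 CPM in the other 5, Pde10a at 24.6 against 71.8 to 110 CPM, Pde5a at 69.6 against 98.2 to 113 CPM, Pde4b at 51.7 against 69.1 to 80.6 CPM and Pde4a at 27.8 against 37.8 to 44.0 CPM. In the Gnb5-/- cortex mouse 14, also low in such reads, had 14.7 CPM of Pde10a against 83.4 to 221 CPM and 74.5 CPM of Pde1a against 122 to 137 CPM. In the Gnb5+/- ventricles mouse 4, low in such reads as well, had 18.0 CPM of Pde4d against 34.0 to 44.6 CPM, 48.8 CPM of Pde1c against 78.2 to 100 CPM and 3.37 CPM of Pde10a against 5.10 to 6.32 CPM.

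The other 8 were in libraries with no such shortfall. In Gnb5-/- hippocampus mouse 5 stood apart at the low end for 3 genes, with 154 CPM of Pde1a against 190 to 208 CPM, 5.43 CPM of Pde3a against 6.58 to 7.30 CPM and 19.4 CPM of Pde4d against 22.6 to 24.7 CPM. In Gnb5-/- ventricles mouse 12 had 6.99 CPM of Pde1a against 9.36 to 10.7 CPM and 3.97 CPM of Pde10a against 5.20 to 5.32 CPM, mouse 5 had 6.51 CPM of Pde5a against 8.22 to 9.26 CPM, and mouse 3 was highest for Pde4b, with 65.3 against 47.2 to 53.2 CPM. In Gnb5-/- atria mouse 1 was highest for Pde10a, with 7.36 against 4.58 to 5.26 CPM. None of the 18 was in a Gnb5+/+ group. Many of them shared a library or a mouse, and a difference in spread between genotypes was not tested.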

How the results depend on the processing

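Of 1525 alternative log2 fold changes of members, 1436 kept their direction and their side of the threshold. With the direction kept, 14 lost and 10 gained a call. Another 65 changed sign, of which 2 had been called and 5 were called under the alternative. The cause was not tested. Members called numbered 0 in each genotype comparison under all alternatives, except in Gnb5-/- cerebellum without 1 library each, where the range was 0 to 1 (Pde10a, without mouse 12). The effect in ventricles against atria called 1 member without the filter on low counts (Pde1c), where the share of all genes called is not given. With library size in place of TMM factors, 7 members were called between atria and ventricles, where Pde1b was 0.14, Pde4a 0.42 and Pde5a 0.33, and Pde4d in heart against brain was -0.45. With Gnb5-/- in place of Gnb5+/+ libraries, 7 members were called between atria and ventricles and 5 between hippocampus and cortex. Without the libraries low in reads outside genes, all members but Pde4a were called between Gnb5-/- hippocampus and cortex. The share of all genes called there is not given, so this count does not set the members apart from other genes.

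The replicate number as a block left the members called at 0 in all 7 comparisons and turned Pde1b in Gnb5+/- atria to -0.011. Pairs with the same number correlated at -0.27 to 0.14, and 1 of 12 libraries in atria, 0 in ventricles, 2 in cerebellum, 0 in hippocampus and 0 in cortex matched its own number best, so the numbers were not read as pairs. The mouse as a block for tissues gained Pde4d in atria against ventricles and in cerebellum against cortex (adjusted p = 0.0232) and lost Pde5a in hippocampus against cortex.

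With Gnb5-/- libraries for tissues, Pde10a in cerebellum against hippocampus was -0.050, Pde1c and Pde5a in atria against ventricles -0.28 and 0.27 (called), and Pde4a in hippocampus against cortex 0.14. Pde4a there was 0.0011 without the filter. For the effect in cortex against hippocampus, Pde1b and Pde5a were -0.00099 and -0.016 with DESeq2's size factors and -0.011 and -0.026 without the filter.

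Without the libraries low in reads outside genes, Gnb5-/- cortex gave 0.083 for Pde10a, 0.062 for Pde3a, 0.0076 for Pde4b and 0.046 for Pde4d. Gnb5+/- ventricles gave 0.10 for Pde3a, 0.051 for Pde4b, 0.063 for Pde4d and 0.020 for Pde5a. The effect in cortex against hippocampus was 0.17 for Pde10a, 0.0057 for Pde1a, 0.12 for Pde3a, 0.0043 for Pde4a and 0.10 for Pde4d. Against cerebellum, Pde4d in cortex was 0.13, and in hippocampus Pde1c was -0.037 and Pde4b -0.053.

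With 1 library left out, 14 uncalled values, at most 0.091 in size, changed sign at least once. In Gnb5-/- atria the ranges were -0.094 to 0.080 for Pde10a, -0.068 to 0.072 for Pde1c, -0.12 to 0.44 for Pde2a and -0.091 to 0.078 for Pde4d. In ventricles they were -0.050 to 0.10 for Pde1a, -0.13 to 0.077 for Pde1b and -0.11 to 0.021 for Pde4a. In cerebellum they were -0.045 to 0.080 for Pde1b and -0.014 to 0.10 for Pde4a. In hippocampus they were -0.041 to 0.039 for Pde1a, -0.0065 to 0.11 for Pde1b, -0.13 to 0.016 for Pde2a and -0.064 to 0.038 for Pde3a. In cortex Pde1c ranged from -0.11 to 0.11. The adjusted p of Pde10a in Gnb5-/- cerebellum ranged from 0.0384 to 0.722 with 1 library left out and from 0.311 to 0.607 under the other alternatives. Depth limits Pde2a most, whose counts are an undercount.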
